A study of Mus musculus with 14 samples.

Results

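The H3K9me3 peak lists of the mouse cell line LEPC overexpressing miR-93-5p (called miR-93-5p below) and of its control, labelled scr, are described here. The members were all peaks of these 2 lists, 41767 of the 160448 peaks in the 6 histone lists of the series, from 2 of its 14 samples. The miR-93-5p list held 25879 peaks and the scr list 15888. Both libraries were made from cells of strain C57BL/6 at 3 passages, grown in DMEM with serum, with the Abcam antibody ab8898 against H3K9me3. The only difference that the labels state is genotype, given as scr or as overexpression of miR-93-5p. Differences of culture, immunoprecipitation or sequencing between the 2 libraries cannot be told apart from it. The other samples of the series were H3K4me3, H3K27me3 and input chromatin, RNA-seq and microRNA pulldown libraries of the same cells. Each condition had 1 H3K9me3 library, so there was no replicate check, no test and no p-value, and each difference below is one between 2 libraries. The amount of miR-93-5p in either was not analysed here, and Mcm7, the gene whose intron carries the microRNA, had no locus in the gene table used.

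Trimethylation of lysine 9 of histone H3 marks silent chromatin. SETDB1, brought to DNA by KRAB zinc finger proteins and TRIM28, places it over endogenous retroviruses, over the zinc finger genes themselves and on the methylated allele of imprinted control regions, and SUV39 enzymes place it over satellite repeats. HP1 proteins bind the mark. miR-93-5p belongs to the miR-17 family, microRNAs that share a seed and pair with messages such as that of Cdkn1a.

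The mature sequences of the 6 mouse family members that share the seed, from RefSeq with build GRCm38.p6, show what was overexpressed and what it shares with its relatives. Bases 2 to 8, the seed, are in capitals, and the sequences differ only outside it and in length. miR-6383, of another name, carries the same 7 bases.
miR-93-5p: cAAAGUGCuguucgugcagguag
miR-106b-5p: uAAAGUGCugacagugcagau
miR-17-5p: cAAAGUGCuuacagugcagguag
miR-20a-5p: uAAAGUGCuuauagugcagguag
miR-20b-5p: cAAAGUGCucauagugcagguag
miR-106a-5p: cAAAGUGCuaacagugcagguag

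No mm9 genome was used here, so the bases under the peaks are not shown. For 3 imprinted genes whose 5′ end lay in a peak of both libraries, the promoter window of RefSeq is printed (GRCm38.p6, from 250 bases before the start to 50 after it). The windows were matched by symbol and were not placed on the mm9 peaks. Capitals mark TGCCGC or its reverse complement GCGGCA, the hexamer that the imprinting factor ZFP57 binds when its CpG is methylated. In all, 7 imprinted genes had the 5′ end in peaks of both libraries. The 3 windows printed hold the hexamer, as does that of Grb10, while those of Igf2r, Peg3 and Zrsr1 do not. The 3 are examples with the hexamer and do not show how often it occurs.
Nnat (chr2:157559828-157560127, plus strand): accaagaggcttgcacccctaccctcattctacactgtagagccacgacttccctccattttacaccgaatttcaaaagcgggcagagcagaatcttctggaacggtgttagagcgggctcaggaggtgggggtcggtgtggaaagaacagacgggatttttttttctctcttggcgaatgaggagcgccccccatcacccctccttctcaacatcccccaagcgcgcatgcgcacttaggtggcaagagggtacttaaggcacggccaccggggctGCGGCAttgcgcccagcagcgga
Nap1l5 (chr6:58907077-58907376, minus strand): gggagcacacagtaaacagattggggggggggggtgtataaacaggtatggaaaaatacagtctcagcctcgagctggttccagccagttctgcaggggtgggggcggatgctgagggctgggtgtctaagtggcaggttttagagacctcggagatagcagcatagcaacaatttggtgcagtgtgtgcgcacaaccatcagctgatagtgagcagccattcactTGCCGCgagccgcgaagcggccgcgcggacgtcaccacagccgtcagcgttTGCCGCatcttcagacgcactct
Plagl1 (chr10:13090582-13090881, plus strand): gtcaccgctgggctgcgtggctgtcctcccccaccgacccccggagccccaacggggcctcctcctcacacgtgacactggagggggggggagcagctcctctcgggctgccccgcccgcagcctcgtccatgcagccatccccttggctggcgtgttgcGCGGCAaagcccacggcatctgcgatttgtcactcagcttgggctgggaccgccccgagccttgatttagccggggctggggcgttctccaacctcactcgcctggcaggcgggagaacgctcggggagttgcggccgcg

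The miR-93-5p list had 1.63 times as many peaks as the scr list and covered 1.82 times as many bases, 39.2 Mb against 21.6 Mb. Its peaks were also wider, with a median of 1261 bp (quartiles 950 and 1766 bp) in miR-93-5p against 1138 bp (853 and 1597 bp) in scr. Peaks of at least 3 kb numbered 1507 in miR-93-5p (5.82%) and 612 in scr (3.85%), and peaks of at least 10 kb 35 and 11. For H3K4me3 of the same cells the ratio was 1.11 for peak numbers, 1.08 for covered bases and 0.957 for median width. For H3K27me3 it was 0.98 for numbers, 0.395 for covered bases and 0.451 for median width, so that mark also differed between the libraries. A list grows with sequencing depth as well as with the extent of a mark, and the read numbers are not given in the sources used here, so depth was not tested. When only the 15888 highest-scoring peaks of each library were kept, the scr list stayed whole. The miR-93-5p peaks then covered 1.36 times as many bases as the scr peaks, with a median width of 1567 bp against 1138 bp. Wider peaks scored higher, with a median of 827 bp in the lowest 10% of miR-93-5p peaks by score and 2890 bp in the highest. The cut took only low-scoring miR-93-5p peaks away, so by itself it raised the miR-93-5p median.

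Of the miR-93-5p peaks, 11094 (42.9%, 95% Wilson interval 42.3 to 43.5%) overlapped an scr peak by at least 1 bp. Of the scr peaks, 11487 (72.3%, 71.6 to 73.0%) overlapped a miR-93-5p peak. These intervals cover counting error only. The bases under peaks of both libraries came to 15.3 Mb, 33.7% of the bases under peaks of either. With equal numbers of peaks the shares were 56.4% of miR-93-5p peaks and 59.8% of scr peaks, so with lists of 1 length the shares lay closer together. The 9775 pairs of 1 peak with 1 peak had centres a median of 164.5 bp apart. Within them the miR-93-5p peak was the wider one in 71.6%, with a median of 1577 bp against 1263 bp in scr.

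The peaks the libraries shared were the strong and wide ones of each list. The score that the authors deposited for each peak was ranked only within its own library. In the lowest 10% by score, 16.6% of miR-93-5p peaks and 47.4% of scr peaks overlapped the other library, and in the highest 10% 91.5% and 98.9%. Of peaks under 1 kb, 21.2% in miR-93-5p and 54.6% in scr were shared, while all 35 and all 11 peaks of at least 10 kb were. Peaks found in 1 list alone had a median width of 1086 bp in miR-93-5p and 886 bp in scr. They lay a median of 25.4 kb (miR-93-5p) and 17.7 kb (scr) from the nearest peak of the other library, and 30.5% and 38.7% of them lay within 10 kb of one.

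**Figure D1:**
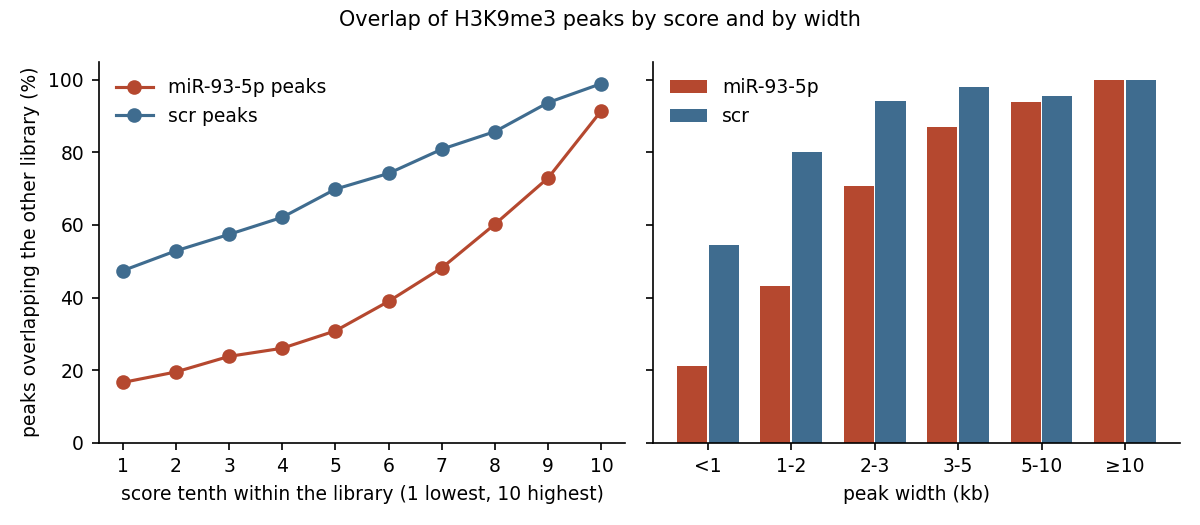
Share of H3K9me3 peaks that overlap a peak of the other library, by score in 10 equal classes within each library (left) and by peak width (right), with miR-93-5p in red and scr in blue. In both libraries the share is higher in each higher score class, up to 91.5% in miR-93-5p and 98.9% in scr, and all peaks of at least 10 kb are shared.

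Of the 12 highest-scoring peaks of each library, 4 in miR-93-5p and 6 in scr overlapped a Zfp gene or a listed imprinted gene. The share of all peaks that overlapped such a gene was not computed, so these counts only describe the 12. Scores piled up at 3100, which was the median score of both H3K4me3 lists. Among H3K9me3 peaks, 7 in miR-93-5p and 1 in scr scored 3100 or more, so ranks among these 7 are not read as an order of strength. The peak ranked 1 in scr, 4439 bp wide in miR-93-5p and 4409 bp in scr, lay 268.1 kb from the nearest listed locus on chromosome 17. Nnat and Blcap, an imprinted pair in which Nnat sits in an intron of Blcap, shared a peak of 10866 bp in miR-93-5p and 10579 bp in scr, ranked 4 in each list (in miR-93-5p tied with 3 others). Zfp697, a zinc finger gene, lay under a peak tied at rank 4 in miR-93-5p (7444 bp) and 3 in scr (5834 bp). The neighbouring zinc finger genes Zfp12 and Zfp316 shared a peak of 19179 bp in miR-93-5p and 13271 bp in scr, ranked 9 and 2. Habp4, which encodes a hyaluronan-binding protein, held the peak ranked 1 in miR-93-5p (9733 bp), and scr had 2 peaks there, of 5418 and 2608 bp, the wider ranked 5. Irs1, the insulin receptor substrate, held the peak ranked 3 in miR-93-5p, 7362 bp wide against 5515 bp in scr. Others of the 12 in miR-93-5p lay at Zfp777 (7704 bp), at Trim24 (11125 bp), at Insm1, a zinc finger factor of neuroendocrine cells (7078 bp), and at Trim71, an RNA-binding regulator of stem cells (5600 bp), and 2 lay 63.4 and 112.7 kb from the nearest listed locus. The peak at Gnas and its antisense transcript Nespas ranked 7 in scr, with 7122 bp in miR-93-5p and 6911 bp in scr. A peak 28.8 kb outside Rasgrf1, where the imprinted control region of that gene is known to lie, ranked 11 in scr and measured 8823 bp in miR-93-5p and 5434 bp in scr.

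The widest peak of each list covered Resf1, a factor of retroelement silencing that works with SETDB1. It measured 24999 bp in miR-93-5p and 24738 bp in scr, and peaks covered 94.2% of the Resf1 locus in miR-93-5p and 94.3% in scr. Zfp943 on chromosome 17, a locus of 108617 bp, held the second widest shared peak of scr, with 19699 bp in miR-93-5p and 19160 bp in scr. Zfp758 of the same cluster had a peak of 16912 bp in miR-93-5p and 15585 bp in scr. Zfp146 on chromosome 7 lay under 1 peak of 21669 bp in miR-93-5p, which overlapped 4 scr peaks. Airn, the long non-coding RNA that silences Igf2r, held a peak of 12717 bp in miR-93-5p and 12713 bp in scr. At Resf1, Zfp943 and Airn the peaks of both libraries had nearly the same width.

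Zinc finger genes were often marked by H3K9me3 in both libraries. Of 349 protein-coding genes named Zfp, 155 (44.4%) overlapped a miR-93-5p peak and 118 (33.8%) an scr peak, against 20.3% and 15.4% of all 18477 protein-coding genes. Genes of the same locus lengths gave 15.4% and 11.4%. Peaks in both libraries held 111 of them (background 13.0%), peaks in miR-93-5p alone 44 (background 7.22%) and peaks in scr alone 7 (background 2.37%). Peaks covered 7.53% of the bases of these loci in miR-93-5p and 5.08% in scr, against 1.31% and 0.782% over all coding genes, so the ratio of covered bases was 1.48 for Zfp genes and 1.67 for all. The 4 members with the most covered bases were Zfp943 (34583 bp in miR-93-5p, 32380 bp in scr), Zfp942 (24684 and 22421 bp), Zfp180 (17737 and 12248 bp) and Zfp110 (14346 and 13831 bp). Of the 106 genes numbered Zfp700 and above, many of them in clusters found in rodents, 52 held a miR-93-5p peak and 40 an scr peak. The list goes by name, so it also holds zinc finger genes of other classes. Zinc finger genes are near-identical copies of each other in part, and how reads that fit several copies were counted is not given in the sources used here.

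Along Zfp genes the mark lay towards the 3′ end, where the exon with the zinc fingers lies. Orientation was known for 14797 coding genes, from the strand in the RefSeq promoter table. Over 289 Zfp genes, peaks covered 4.12% of the first 10% of the gene body and 22.6% of the last in miR-93-5p, and 1.99% and 15.7% in scr. Over all 13363 oriented coding genes of at least 2 kb the values were lower towards the 3′ end, 2.37% and 1.62% in miR-93-5p and 1.59% and 1.06% in scr. The 3′ end itself lay in a peak in 50 of 290 Zfp genes in miR-93-5p (17.2%) and in 36 in scr (12.4%), against 1.47% and 0.919% of all oriented genes. The 5′ end lay in a peak in 11 Zfp genes in miR-93-5p (3.79%) and 5 in scr (1.72%), against 3.62% and 2.32% of all.

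**Figure D2:**
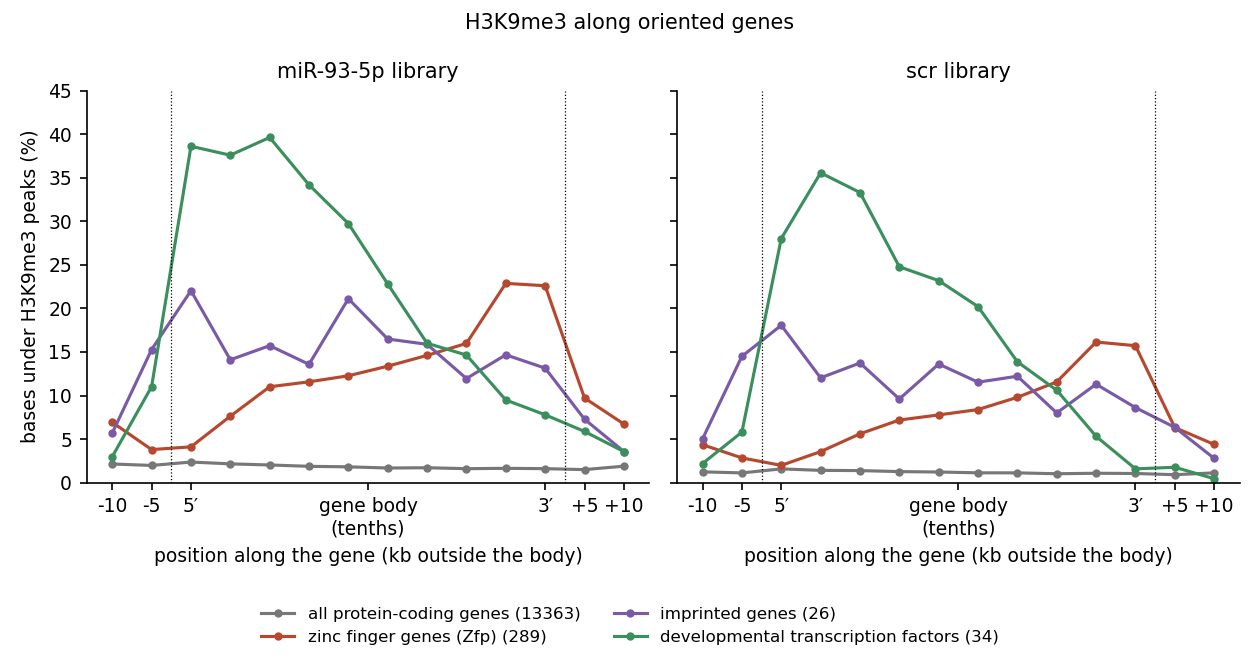
Mean share of bases under H3K9me3 peaks (%) in each of 10 equal steps along the gene body and in 5 kb steps outside it, 5′ to 3′, in the miR-93-5p library (left) and the scr library (right), for 4 gene groups with the number of genes in brackets. Zfp genes reach 22.6% in the last 10% of the body in miR-93-5p and 15.7% in scr. Developmental transcription factors are highest in the third 10% of the body in miR-93-5p and in the second 10% in scr.

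Imprinted genes are expressed from 1 parental allele. Of 37 protein-coding imprinted genes, 22 held a miR-93-5p peak (59.5%) and 18 an scr peak (48.6%), where genes of the same locus lengths gave 23.2% and 17.9%. Both libraries held 18 of them (background 13.0%), miR-93-5p alone 4 (background 7.22%) and scr alone none (background 2.37%). Grb10, an adaptor that restrains growth signalling, had 36822 covered bp in miR-93-5p and 15878 bp in scr. Igf2r, the receptor that clears IGF2, had 16394 and 14845 bp, Mest 10092 and 7231 bp, and Gnas 9292 and 8298 bp. The whole loci of Nnat and Nap1l5 lay under peaks in both libraries. The members in miR-93-5p alone were Igf2 (1843 bp), Impact (1711 bp), Gpr1 (1424 bp) and Zdbf2 (639 bp). Among those with no peak in either library were Dlk1, Rtl1, Ndn, Magel2, Ube3a and Copg2. Peaks of both libraries also covered the non-coding Airn over 36045 bp in miR-93-5p and 37858 bp in scr.

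Promoters whose 5′ end lay in a peak were rich in CpG. The RefSeq windows of the 278 genes with the 5′ end in peaks of both libraries had a median GC content of 65.7% and a median of 24 CpG, the 257 in miR-93-5p alone 64.7% and 23, and the 65 in scr alone 63.7% and 21. All 14797 windows had 57.3% and 15. TGCCGC was found on either strand in 24.8% of the windows of both libraries, 49 of the 257 in miR-93-5p alone, 12 of the 65 in scr alone and 14.8% of all. The hexamer holds a CpG, so its share goes with the CpG content. It was present in 4 of the 9 imprinted genes with the 5′ end in a peak, among them the Nnat, Nap1l5 and Plagl1 windows printed above. No match says only that these letters are not in the window.

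Transcription factors that pattern the embryo carried the mark more over the front of the gene body than over its end. Of 48 in the list, 27 held a miR-93-5p peak (56.3%) and 21 an scr peak (43.8%), where genes of the same locus lengths gave 14.4% and 10.8%. Both libraries held 18 (background 13.0%), miR-93-5p alone 9 (background 7.22%) and scr alone 3 (background 2.37%). In the first 10% of the gene body, peaks covered 38.6% of bases in miR-93-5p and 28.0% in scr over 34 oriented genes. Barhl2, a homeobox gene of the nervous system, was covered over 91.6% of its locus in miR-93-5p and 84.1% in scr. Nkx2-1, a regulator of lung and thyroid, was covered over 97.4% in miR-93-5p and 77.1% in scr. Pax6, an eye and pancreas regulator, had 5101 bp in miR-93-5p and 2361 bp in scr, and Gata6, an endoderm regulator, 4057 and 2923 bp. Pax9, next to Nkx2-1, had 5128 bp in miR-93-5p and no scr peak. Pou4f1 and Sox3 were likewise covered in miR-93-5p alone, over 59.5% and 80.7% of their loci. Dlx1, Olig2 and Pax3 held a peak in scr alone.

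The Hox genes, which set position along the body axis, were more covered in miR-93-5p, over 18.7% of their bases against 7.43% in scr. Of 27, 14 held a miR-93-5p peak and 7 an scr peak. Both libraries held 6 (background 13.0%), miR-93-5p alone 8 (background 7.22%) and scr alone 1, Hoxd1 (background 2.37%). With equal numbers of peaks 12 genes had one in miR-93-5p and 7 in scr. Genes of a cluster lie side by side and can share peaks, so they are not independent counts. The difference lay mostly in the HoxC cluster, singled out after its values were seen. Over its 125.7 kb on chromosome 15 (mm9, from 5 kb outside the first listed gene to 5 kb outside the last), miR-93-5p had 12 H3K9me3 peaks covering 32.6 kb and scr had 2 covering 3.43 kb. The peaks of scr lay at Hoxc13 and Hoxc12, which miR-93-5p peaks also covered, and the miR-93-5p peaks ran on over Hoxc11, Hoxc9, Hoxc8, Hoxc6 and Hoxc4. The peak at Hoxc9 (chr15:102805159-102808351) was the second highest-scoring of all miR-93-5p peaks without an scr peak.

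In the same HoxC span, H3K27me3, the mark of Polycomb repression, ran the other way. There were no H3K27me3 peaks in miR-93-5p and 22 in scr, covering 37.0 kb. H3K4me3, the mark of active promoters, had 4 peaks covering 13.5 kb in miR-93-5p and 6 covering 10.6 kb in scr. In HoxA, H3K9me3 peaks covered 28.9 kb in miR-93-5p and 16.1 kb in scr, and H3K27me3 peaks 0 and 4.54 kb. HoxB had little H3K9me3 (6.79 kb in miR-93-5p, 4.72 kb in scr) and 3.19 kb and 24.9 kb of H3K27me3. HoxD had 7.81 and 4.09 kb of H3K9me3, and 1.37 and 1.64 kb of H3K27me3. Beside this, the H3K27me3 list of miR-93-5p had narrower peaks over the genome, with a median of 473 bp against 1049 bp in scr and 23.7 Mb covered against 60.0 Mb. The part of that difference in the HoxC values was not tested.

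**Figure D3:**
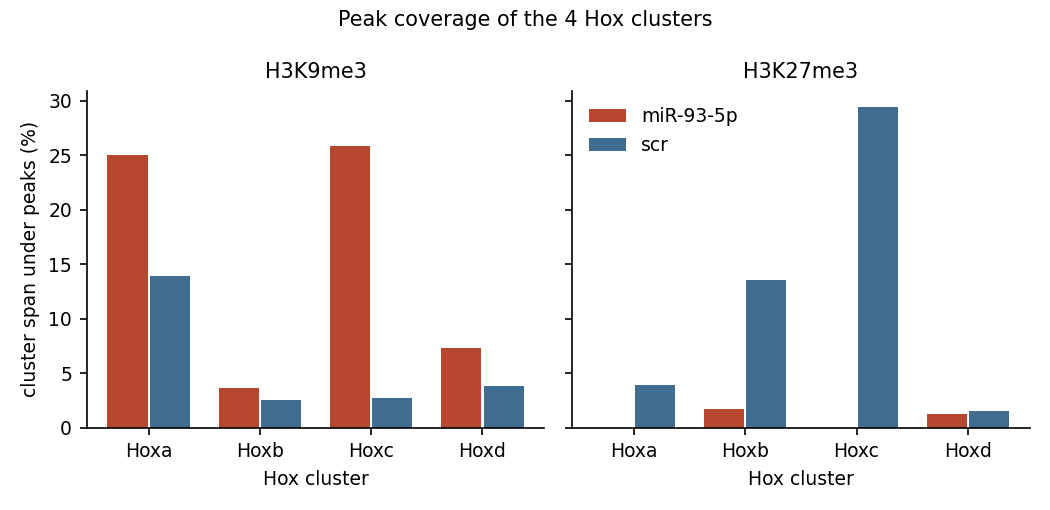
Share of each Hox cluster's span (%) under H3K9me3 peaks (left) and H3K27me3 peaks (right), with the miR-93-5p bar in red left of the scr bar in blue. In HoxC, H3K9me3 covers 25.9% in miR-93-5p and 2.73% in scr, and H3K27me3 covers 0 in miR-93-5p and 29.5% in scr.

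Over all peaks, a small share of H3K9me3 peaks met each of the other marks, which themselves cover a small part of the chromosomes. H3K27me3 peaks of the scr library alone lay under 3.01% of the H3K9me3 peaks in miR-93-5p alone (95% Wilson interval 2.75 to 3.30%) and under 3.59% (3.26 to 3.95%) of the shared miR-93-5p peaks, which were wider (median 1086 bp alone, 1611 bp shared), and the difference was not tested. Within its own library, H3K9me3 met H3K27me3 in 3.69% of miR-93-5p peaks (3.46 to 3.92%) and 4.85% of scr peaks (4.53 to 5.20%). It met H3K4me3 in 1.56% of miR-93-5p peaks (1.42 to 1.72%) and 1.37% of scr peaks (1.20 to 1.56%). By bases, H3K27me3 lay over 1.27% of H3K9me3 in miR-93-5p and 2.98% in scr, and H3K4me3 over 0.986% and 0.916%. Of chromosomes spanning 2638 Mb, H3K27me3 peaks covered 23.7 Mb in miR-93-5p and 60.0 Mb in scr, and H3K4me3 peaks 40.0 and 36.9 Mb.

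Receptor genes of smell and taste and several clustered families had few peaks. Of 838 olfactory receptor genes, 3 held a miR-93-5p peak and 1 an scr peak, where genes of the same locus lengths gave 5.90% and 4.43%. None of 184 vomeronasal receptor genes held one in either library. None of 63 ribosomal protein genes, which are active in every cell, held one either. Keratins had 2 of 53 in miR-93-5p (3.77%) and 1 in scr (1.89%), against 8.17% and 5.96% for genes of their lengths. Serpins had 4 of 58 (6.90%) and 1 (1.72%), against 11.9% and 8.76%. Cytochrome P450 genes had 5 of 75 (6.67%) and 4 (5.33%), against 16.3% and 11.9%. Defensins had 1 of 55 in each library (1.82%), against 6.20% and 4.63%. Taste receptors had 1 of 38 (2.63%) and 0, against 5.94% and 4.455%. Natural killer and C-type lectin genes had 5 of 51 (9.80%) and 3 (5.88%), near the 11.8% and 8.62% of genes of their lengths. With so few members, 1 gene more or less moves these shares. Clustered protocadherins had 3 of 24 in miR-93-5p (12.5%) and 2 in scr (8.33%), near the 10.9% and 8.45% of genes of their lengths, with 8742 bp at Pcdhgc4 in miR-93-5p and 1836 bp in scr. Among the SCAN and KRAB domain genes of other names, 9 of 62 held a miR-93-5p peak (14.5%) and 5 an scr peak (8.07%), against 14.6% and 10.8% for genes of the same lengths. In a list of 4 histone gene names the one with a peak was H13, which encodes a signal peptide peptidase and not a histone.

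**Figure D4:**
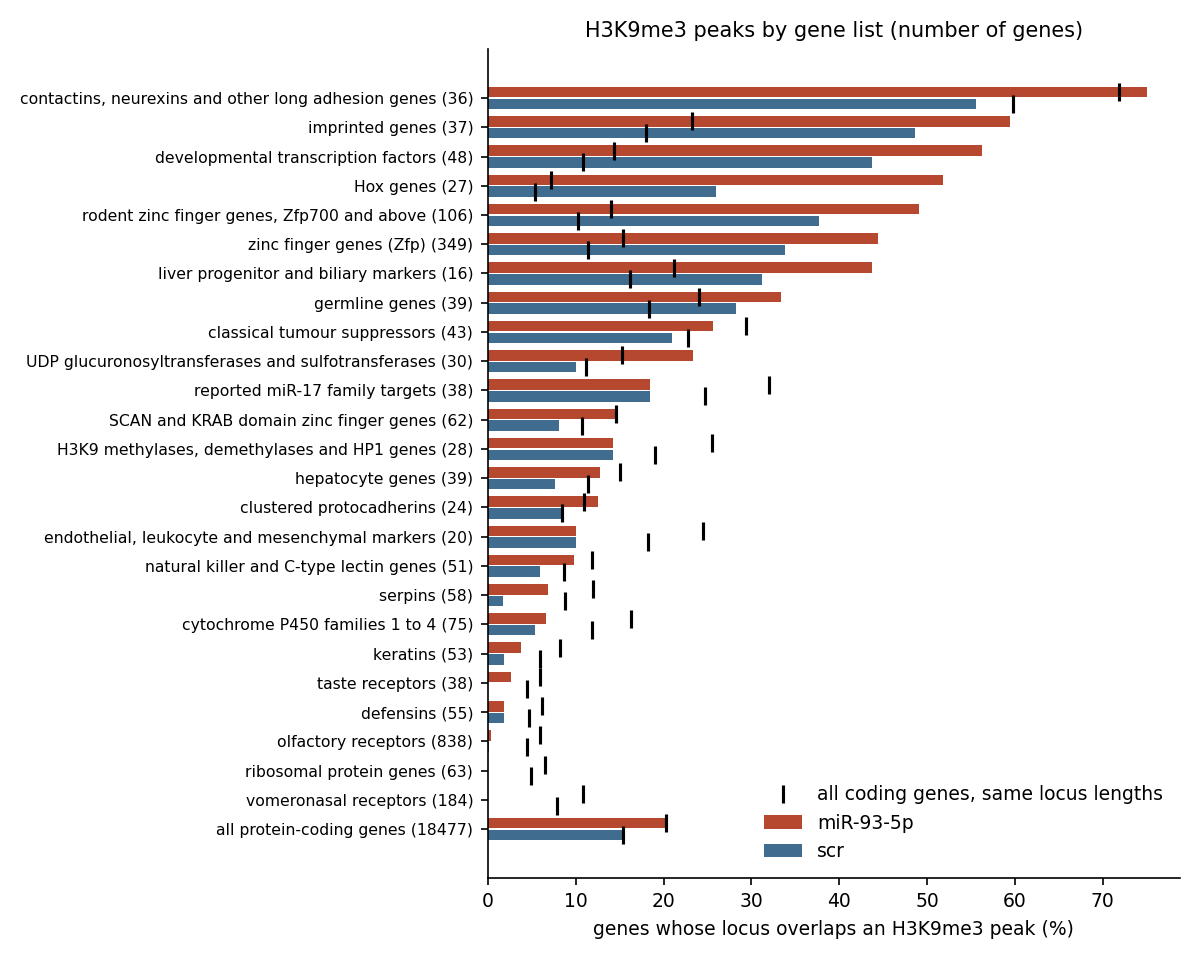
Share of genes (%) whose locus overlaps an H3K9me3 peak, for each gene list with its number of genes, with miR-93-5p in red above scr in blue, and a black tick for all protein-coding genes weighted to the same locus lengths. Imprinted genes, developmental transcription factors, Hox and Zfp genes lie right of their ticks in both libraries, and olfactory receptors lie left of theirs.

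Of 39 hepatocyte genes, 5 held a miR-93-5p peak (12.8%) and 3 an scr peak (7.69%), where genes of the same lengths gave 15.1% and 11.4%. Cebpa, a factor of hepatocyte identity, was covered over 2181 bp in miR-93-5p and 1085 bp in scr, Ppara, the fatty acid receptor, over 2511 and 2652 bp, and Nr1h4, the bile acid receptor, over 2399 and 1598 bp. Of 16 liver progenitor and biliary markers, 7 held a miR-93-5p peak and 5 an scr peak (43.8% and 31.3%, against 21.2% and 16.1%), with Prom1, a stem cell marker, at 6734 bp in miR-93-5p and 1760 bp in scr. Cdh1, the epithelial cadherin, had 3008 bp in miR-93-5p and 4831 bp in scr, and Cd44 had 3304 bp in miR-93-5p and none in scr. Of 20 endothelial, leukocyte and mesenchymal markers, 2 held a peak in each library (10.0%), against 24.4% in miR-93-5p and 18.2% in scr for genes of the same lengths. Of 30 UDP glucuronosyltransferases and sulfotransferases, which conjugate drugs and hormones, 7 held one in miR-93-5p (23.3%) and 3 in scr (10.0%), against 15.3% and 11.1%, among them Sult1c2 (3966 and 3810 bp).

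Among 43 classical tumour suppressors, 11 held a miR-93-5p peak (25.6%) and 9 an scr peak (20.9%), against 29.4% and 22.8% for genes of the same lengths. Both libraries held 6 (background 13.0%), among them Wwox, Mtss1 and Smad3, which had 6067 bp in miR-93-5p and 5837 bp in scr. In miR-93-5p alone were Axin1, Smad4, Arid2, Rb1 and Arid1a (background 7.22%), and 3 were in scr alone, among them Pdcd4 and Dlc1 (background 2.37%). Of 38 reported targets of the miR-17 family, 7 held a peak in each library, where genes of the same lengths gave 32.0% in miR-93-5p and 24.7% in scr. Tgfbr2, a receptor of TGF-beta, had 5018 bp in miR-93-5p and 2164 bp in scr, Map3k2 6719 and 3748 bp, E2f3 4269 and 1422 bp, and Arhgap24 11074 and 2710 bp. Cdkn1a, the cell cycle inhibitor p21, had no peak in either library.

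Of 28 genes that encode H3K9 methylases, demethylases and HP1 or related proteins, 4 held a peak in each library (14.3%), against 25.6% in miR-93-5p and 19.04% in scr for genes of the same lengths. Atf7ip, the partner that protects SETDB1, had 6969 bp in miR-93-5p and 9108 bp in scr, and Setdb1 itself had 1200 and 796 bp. Smchd1, a silencing factor of the inactive X chromosome, had 723 bp in miR-93-5p and 4659 bp in scr. Atrx held a peak in miR-93-5p alone and Dnmt3b in scr alone. Of 39 germline genes, silenced outside the gonads, 13 held a miR-93-5p peak (33.3%) and 11 an scr peak (28.2%), against 24.0% and 18.4% for genes of the same lengths, with Mov10l1 (4343 and 3229 bp), Prdm9 (3442 and 3150 bp), Fkbp6 (2865 and 2498 bp) and Tdrd9 (6592 and 900 bp) in front. Of 36 very long genes, most of them encoding adhesion proteins of neurons, 27 held a miR-93-5p peak and 20 an scr peak, close to the 71.8% and 59.7% of all genes of such length.

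Over all 18477 protein-coding genes, 1334 held a peak in miR-93-5p alone (7.22%), 437 in scr alone (2.37%) and 2408 in both (13.0%). Long genes were hit more often. Of genes under 5 kb, 5.69% held a miR-93-5p peak and 4.29% an scr peak, and of genes of at least 200 kb 71.8% and 59.7%. With the 15888 highest-scoring peaks of each library the classes were 729 genes in miR-93-5p alone, 765 in scr alone and 2080 in both, so the excess of genes in miR-93-5p alone was not seen with lists of equal length. In the same setting, 133 Zfp genes held a peak in miR-93-5p and 118 in scr, 21 and 18 of the imprinted genes, and 23 and 21 of the developmental transcription factors, against 2809 and 2845 of all 18477 genes. Peaks lay in a listed gene locus of any kind in 34.6% of cases in miR-93-5p (34.1 to 35.2%) and 36.7% in scr (35.9 to 37.4%), while listed loci covered 37.6% of the chromosomes.

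Genes with the most covered bases in miR-93-5p and none in scr were Nedd4l, a ubiquitin ligase of sodium channels (11414 bp), Zfp1 (8259 bp), Thsd7a (8135 bp), the ubiquitin ligase gene Hectd2 (8071 bp), the microtubule gene Eml4 (8010 bp), the chromodomain gene Cdyl2 (7948 bp), the circadian factor Hlf (7217 bp) and the Ras activator Rasgrp3 (7026 bp). The widest single peak of miR-93-5p without an scr peak, 8151 bp, lay in Tpd52, a gene often amplified in tumours, whose locus had 22834 bp in miR-93-5p and 2191 bp in scr. Other high-scoring peaks in miR-93-5p alone lay in Ctnnd2 (2909 bp), 22.4 kb from Adm (3611 bp) and 5.57 kb from Zfp560 (4562 bp).

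Among the most covered genes in scr alone were Prss32 (4000 bp), Nfe2l2, the regulator of oxidative stress genes (3480 bp), Smok2b (3221 bp), Wnt7a (2927 bp), Cltc, the clathrin heavy chain (2819 bp), Slc41a3 (2579 bp) and Gsg1 (2550 bp). These genes had fewer covered bases than those in miR-93-5p alone. Of the 5 highest-scoring scr peaks without a miR-93-5p peak, 3 lay side by side on chromosome 6, with 5356, 3477 and 2129 bp, and were 98.7 to 106.1 kb from the nearest listed locus. Another, of 1870 bp, lay at Ly6a, the stem cell antigen gene. Genes covered most in both libraries were Shroom3 (74228 bp in miR-93-5p, 22746 bp in scr), Apbb2 (56711 and 33118 bp), Pde4d (64505 and 14552 bp), Cntnap2 (61875 and 10948 bp), Trim24 (44889 and 26911 bp), Zfp943, Arhgap10 (42567 and 23677 bp) and Fry (42181 and 20560 bp). Most of these loci exceed 200 kb.

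Peaks covered at least 80% of the locus of 41 coding genes in both libraries, of 48 in miR-93-5p alone and of 7 in scr alone. Most were short, and only 7 of the 41, 9 of the 48 and none of the 7 measured 5 kb or more. The 7 long ones in both libraries were Resf1, Zfp68, Zfp110, Zfp146, Zfp758, Adcyap1 and Barhl2. Among the 48, named after their values were seen, were Zfp809, which brings silencing to proviruses in mouse (81.1% in miR-93-5p, 31.8% in scr), Zfp599 (96.7% and 40.9%), Hic1, a tumour suppressor locus (87.0% and 43.9%), and Iapp (82.5% and 8.05%). Cebpd (100.0%), Cldn3 (100.0%) and Foxe3 (98.8%) had no scr peak. Of the 7, Cdkn1c, the imprinted cell cycle inhibitor, was close to the limit in both (79.5% in miR-93-5p, 85.9% in scr), and Znrf4 (98.5%) and Nkapl (84.6%) had no miR-93-5p peak.

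Peaks clustered in the same parts of the genome in both libraries. The 264 windows of 1 Mb with the most peaks held 35.6% of miR-93-5p peaks and 36.6% of scr peaks, and 181 of these windows were the same. Over 2649 windows, covered bases had a Spearman rho of 0.92, given as a description of windows that share gene content and mappability. The fullest window lay at 37 to 38 Mb of chromosome 6, with Trim24, Akr1d1, Creb3l2, Dgki and Svopl, at 310.5 kb in miR-93-5p and 167.2 kb in scr. At 22 to 23 Mb of chromosome 17, where all 8 coding genes are Zfp genes, it was 223.1 kb in miR-93-5p and 193.4 kb in scr. The window of Trp63 and Tprg on chromosome 16 had 178.2 and 65.0 kb, and that of Nkx2-1, Nkx2-9, Pax9 and Mbip on chromosome 12 had 125.3 and 25.2 kb. The 17 windows with 5 or more Zfp genes averaged 48.8 kb in miR-93-5p and 33.2 kb in scr, against 14.8 and 8.14 kb over all.

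**Figure D5:**
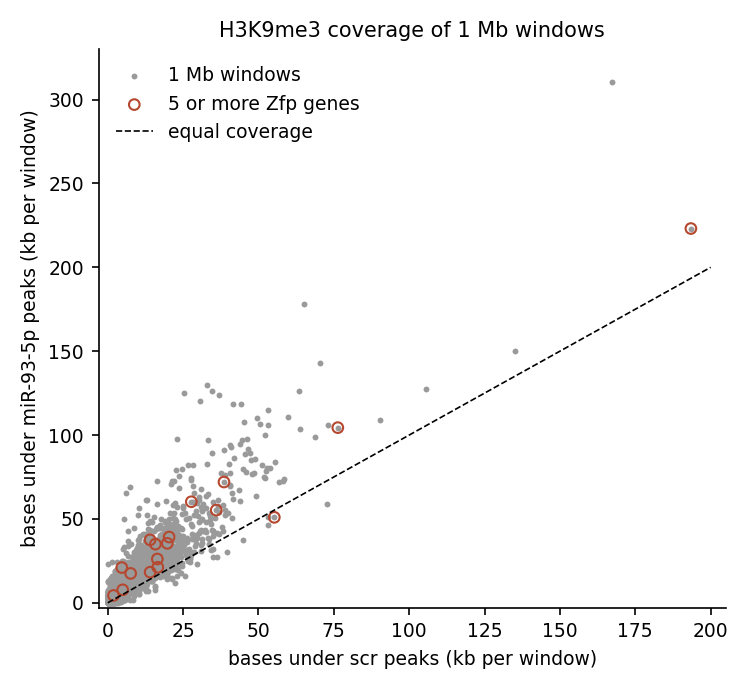
Bases under H3K9me3 peaks (kb) in each of 2649 windows of 1 Mb, miR-93-5p on the vertical and scr on the horizontal axis, with windows of 5 or more Zfp genes circled and a dashed line for equal coverage. Of the windows, 2021 lie above the line and 287 below it, and the highest has 310.5 kb in miR-93-5p and 167.2 kb in scr.

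The ratio of peak numbers, miR-93-5p over scr, lay between 1.40 (chromosome 17) and 2.12 (chromosome 14) on the 20 chromosomes with peaks. Chromosomes 4, 12, 14 and X, picked after their values were seen, were sparse in both libraries, with 3.54 peaks per Mb in miR-93-5p and 1.76 in scr against 11.5 and 7.19 on the other 16. H3K27me3 peaks were also sparse there, at 3.46 per Mb in miR-93-5p and 4.05 in scr against 20.1 and 20.3, as were H3K4me3 peaks, at 4.37 and 3.96 against 6.62 and 5.97. The labels name no tissue for LEPC. Of liver epithelial markers, RNA-seq listed Krt8 at 229.7 FPKM in miR-93-5p and 658.2 in scr, Krt18 at 200.4 and 306.0, Krt19 at 418.2 with no match in scr, Spp1 at 1076 and 530.6, Sox9 at 11.1 and 8.22, Epcam with no match in miR-93-5p and at 0.840 in scr, and Hnf4a at 7.22 and 40.6, while Alb, the albumin gene, had no match in miR-93-5p and 1.30 FPKM in scr, and Afp had none in either. Of the markers of other cells, Vim was at 710.7 FPKM in miR-93-5p and 1061 in scr and Csf1r at 1.16 and 7.63, while Pecam1, Cdh5, Ptprc and Col1a1 had no matched locus in either library.

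Genes under broad H3K9me3 had a matching RNA-seq locus in smaller shares and at lower levels. The authors' RNA-seq values are FPKM of loci assembled in each library alone, and 48.4% of coding genes in miR-93-5p and 49.9% in scr had a matching locus. Where peaks covered at least 20% of the gene, 32.5% of 428 genes in miR-93-5p and 29.0% of 286 in scr had one, against 49.6% and 50.2% of genes without a peak. Those that had one were at a median of 6.75 FPKM in miR-93-5p and 7.22 in scr, against 16.5 and 15.3 FPKM. Exceptions were Zfp68 (22.3 FPKM in miR-93-5p, 16.6 in scr), Zfp146 (24.9 and 18.9) and Resf1 (27.01 and 24.8), each covered over more than 80%. Of genes covered over less than 5%, 47.9% in miR-93-5p and 50.5% in scr had a matching locus, at medians of 10.0 and 9.96 FPKM. Of those covered over 5 to 20%, 39.4% and 50.3% had one, at 13.7 and 11.8 FPKM. These classes were not matched for locus length.

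RNA ratios lay near 0 in every class of genes by peak. The log2 ratio of FPKM plus 1, miR-93-5p over scr, had a median of 0.04 in 508 genes with a peak in miR-93-5p alone, 0.03 in 200 with one in scr alone, 0.12 in 1058 with one in both and 0.01 in 6840 with none. At least 2-fold lower RNA in miR-93-5p was seen in 22 of the 508 (4.33%), 8 of the 200 and 42 of the 1058 (3.97%), against a background of 3.90%. At least 2-fold higher RNA was seen in 20, 9 and 48 of them (3.94%, 4.50% and 4.54%), against a background of 3.01%. RNA-seq also had 1 library a condition.

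Single genes went either way. Rasgrp3, with a peak in miR-93-5p alone, was at 8.67 FPKM in miR-93-5p and 32.2 in scr. Ly6a, with a peak in scr alone, was at 754.8 FPKM in miR-93-5p and 137.0 in scr. Zfp945, with peaks of both, was at 21.7 and 5.47 FPKM, and Barhl2 at 19.4 and 7.97 FPKM. Cdh1 was at 1.52 FPKM in miR-93-5p and 30.7 in scr, Cebpa at 5.17 and 15.3, and Prdm9 at 1.58 and 5.69. Chosen after their values were seen, Cxcl16 (1.51 FPKM in miR-93-5p, 13.3 in scr) had a peak in miR-93-5p alone and less RNA there, while Dclk1 (6.34 and 0.662) and Nfix (17.2 and 4.68) had one in miR-93-5p alone and more. Scara5, a ferritin receptor gene with a peak in scr alone, was at 29.9 FPKM in miR-93-5p and 1.16 in scr, and Fkbp5, likewise in scr alone, at 6.38 and 30.4.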

How the data were processed

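The score in the authors' deposited BED tables was used here to rank peaks within a library. In 1 alternative setting it also served as a cut of at least 100 in both libraries. That setting takes the scores of the 2 libraries as comparable, which was not tested. The deposited RNA-seq tables give FPKM per assembled locus, per the file headers. Bowtie, MACS, CASAVA 1.4, TopHat2, Cufflinks and mm9 are named for the series, per the submitters' processing notes, with no settings. Read depth, the use of input and repeat handling are not given in the sources used here.

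Gene loci were the 35640 mm9 rows with Ensembl identifiers in the deposited pulldown tables, of which 31043 had a symbol and 18477 were protein-coding. Their positions alone were used, and no pulldown value. RNA-seq locus ends fell on listed gene ends 299 times in miR-93-5p and 294 in scr, and on GRCm38 gene ends 10 and 11 times. A gene held a peak where they overlapped by at least 1 bp. RNA-seq loci were placed on genes by best reciprocal overlap of at least 0.5 of the joint length, and ratios used FPKM plus a pseudocount of 1 where the mean was at least 1 FPKM. The share for genes of the same lengths weights all coding genes over 6 length classes. Genes named were the 8 most covered of each class, the leading peaks' genes, up to 4 most covered of each list, Mcm7 and Cdkn1a, and others are said to be chosen later or are counted members of a list. Gene lists and members were chosen with earlier results of these data known. Overlap code was checked on simulated intervals and against bedtools 2.31.1, with Python 3.11.15, pandas 2.3.3, numpy 2.4.6, scipy 1.17.1 and matplotlib 3.10.9. Alternatives were equal numbers of peaks, score and width minimums, merging, chromosomes 1 to 19, other overlap rules, wider loci and other RNA matches. RefSeq tables (GRCm38.p6), matched by symbol, gave strands and sequences only, and no coordinate was moved between builds. Input and mutant libraries were not used here, and some items are not reported here.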

Additional observations from a re-analysis of the deposited data

How the results depend on the processing

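Of 146 values under alternative settings, 86 stayed within the Wilson interval of the reported share, within 1.5 times the reported count or ratio, or within 0.1 of the reported log2 median. The other 60 moved. A reversal was looked for only in the median width difference, which kept its sign in all settings. With equal numbers the scr list stayed whole, so values of that list by itself could not move. Gene counts changed order there, from 1334 in miR-93-5p alone and 437 in scr alone as reported to 729 and 765. No paired analysis was possible because each condition had 1 library.

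With equal numbers of highest-scoring peaks the ratio of numbers was 1.0 by construction and its median over chromosomes 1.00, the median width differed by 429 bp, 56.4% of miR-93-5p and 59.8% of scr peaks were shared (94.8% and 97.3% of the top 10% by score), 35.6% of miR-93-5p peaks lay in genes, 1.89% met H3K4me3 and 38.9% lay in the 10% of windows with the most peaks, with 729 genes in miR-93-5p alone and 765 in scr alone.

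With a score of at least 100 the width difference was 57 bp, 37.2% of miR-93-5p and 77.3% of scr peaks were shared (87.4% of the top 10% of miR-93-5p by score), 35.8% (miR-93-5p) and 39.5% (scr) lay in genes, 2.19% and 1.98% met H3K4me3, and 41.9% and 46.0% lay in the top windows, with 214 genes in scr alone and 1167 in both.

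With peaks of at least 2000 bp the width difference was 57 bp, 33.5% of miR-93-5p and 75.2% of scr peaks were shared (81.4% of the top 10% of miR-93-5p by score), 41.1% (miR-93-5p) and 46.9% (scr) lay in genes, 3.67% and 3.24% met H3K4me3, 4.13% and 5.31% met H3K27me3, and 54.9% and 63.1% lay in the top windows. Genes numbered 637 in miR-93-5p alone, 135 in scr alone and 583 in both, and Zfp genes with a peak 100 in miR-93-5p and 66 in scr.

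After merging across 1000 bp, 43.8% of miR-93-5p peaks were shared, 35.3% lay in genes, 4.005% (miR-93-5p) and 5.21% (scr) met H3K27me3 and 34.0% and 35.4% lay in the top windows. On chromosomes 1 to 19 the top windows held 34.5% and 35.3%. Overlap of at least 0.5 of the shorter peak gave shares of 41.6% (miR-93-5p) and 70.5% (scr), of 0.5 of both peaks 34.3% and 55.8%, and a distance of up to 1000 bp 46.5% and 75.4%. Loci extended by 5000 bp held 43.9% and 46.1% of peaks. Asking for 10% of the locus left 337 genes in miR-93-5p alone, 83 in scr alone and 414 in both. With 1 library a condition, spread between cultures is unknown.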

Other observations

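Although 2021 windows of 1 Mb were more covered in miR-93-5p, 287 were more covered in scr and 341 equal. The window with Cdkn2a and Cdkn2b, cell cycle inhibitors, and a row of interferon genes had 8 peaks (7.69 kb) in miR-93-5p and 12 (15.8 kb) in scr. That with C2cd5 and Etnk1 had 26 peaks (30.0 kb) in miR-93-5p and 21 (39.6 kb) in scr. At Mroh2a and Trpm8 on chromosome 1, among the widest peaks found in 1 library alone, scr had peaks of 7567 and 5622 bp in Mroh2a and miR-93-5p one of 6082 bp in Trpm8.

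Some windows far richer in miR-93-5p held few or no coding genes. At 62 to 63 Mb of chromosome 6, with none, there were 70 peaks (120.6 kb) in miR-93-5p and 31 (30.5 kb) in scr. Grin2a, a glutamate receptor gene, lay alone in a window with 64 peaks (126.0 kb) in miR-93-5p and 23 (34.8 kb) in scr, and Hgf, the hepatocyte growth factor gene, in one with 83 peaks (118.5 kb) and 30 (41.7 kb). The window of Cdk1, Rhobtb1 and Tmem26 had 75 peaks (129.9 kb) in miR-93-5p and 27 (33.1 kb) in scr. These windows were chosen for their differences, so the values are descriptions.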
